A study of Mus musculus with 24 samples.

Results

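Corticosteroid signalling was followed through 10 genes in the medial prefrontal cortex (mPFC) of mice, 10 of the 15456 genes of the deposited table. They were taken by their symbols, and each was found once. The receptors are *Nr3c1*, which encodes the glucocorticoid receptor, and *Nr3c2*, which encodes the mineralocorticoid receptor. The other 8, *Fkbp5*, *Sgk1*, *Tsc22d3*, *Arrdc2*, *Zbtb16*, *Cdkn1a*, *Mt1* and *Mt2*, are genes whose transcription glucocorticoids are known to raise. RNA was sequenced from 24 male BALB/c OlaHsd mice in postnatal week 11, 1 library per mouse and 6 mice per group. The groups were control, duloxetine, *R. flavefaciens* and a combined group given duloxetine and *R. flavefaciens*. Duloxetine is an antidepressant that inhibits the transporters of serotonin and norepinephrine, and it was injected into the peritoneum daily at 10 mg per kg for 21 days before the behavioral tests. *R. flavefaciens* is an anaerobic gut bacterium, and it was given alive by gavage, daily for the first 3 days and 2 times a week afterwards according to the methods. Controls are labelled as untreated, while the methods describe injections and gavage with PBS for them. The behavioral tests of the study included tail suspension and forced swimming. Whether the sequenced mice took them, and the hour at which brains were collected, are not given in the sources used here. Mice carry a label of 2 numbers, such as 12_2, which names them below.

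Corticosterone, the main glucocorticoid of mice, enters brain cells and binds both receptors. The mineralocorticoid receptor binds it more tightly, so that it is largely occupied at rest, while the glucocorticoid receptor fills during stress and at the daily peak of the hormone. Without hormone the glucocorticoid receptor waits in the cytoplasm in a complex with heat shock protein 90 and co-chaperones. With hormone it moves to the nucleus, binds DNA as a pair at the glucocorticoid response element, and raises or lowers transcription nearby. Its targets include FKBP51, encoded by *Fkbp5*, which lowers the affinity of the receptor for the hormone, and therefore closes a feedback loop inside the cell.

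The DNA letters through which the receptor acts can be looked at for *Sgk1* and *Arrdc2*, the first for having the widest spread between mice of the target genes and the second for being the only one called below. The ideal response element was spelled AGAACA, any 3 bases and TGTTCT, and its half-site AGAACA. Both were searched on both strands in the 250 bases before transcript starts of RefSeq on GRCm38.p6. Of 32851 windows over all genes, 3 (0.009%) held the full element and 16.085% held the half-site, which every full element contains 2 times, once on each strand. Windows of 8 of the 10 genes, 16 in number, were searched. One of the 3 windows with the full element belongs to *Sgk1*, on the plus strand at chr10:21993640-21993889, before 1 of its 6 starts in the table. Of the other 5 *Sgk1* windows 2 held the half-site alone and 3 neither spelling, and of the 16 windows searched 4 held the half-site, the fourth being 1 of 3 windows of *Tsc22d3*. The element lies from 21993701 to 21993715, that is, bases 189 to 175 before that start, and the window holds 3 half-sites, a number of at least 2 being found in 1.808% of windows. The window of *Arrdc2*, on the minus strand at chr8:70839721-70839970, held neither spelling. Neither window overlaps an exon of GENCODE. In the following lines, written 5′ to 3′ along the gene, capitals mark letters of the half-site on either strand.
Sgk1: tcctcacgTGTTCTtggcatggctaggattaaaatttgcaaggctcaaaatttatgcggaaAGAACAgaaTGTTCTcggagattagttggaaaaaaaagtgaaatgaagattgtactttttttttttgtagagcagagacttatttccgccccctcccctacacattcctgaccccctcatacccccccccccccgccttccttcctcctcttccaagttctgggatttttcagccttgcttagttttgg
Arrdc2: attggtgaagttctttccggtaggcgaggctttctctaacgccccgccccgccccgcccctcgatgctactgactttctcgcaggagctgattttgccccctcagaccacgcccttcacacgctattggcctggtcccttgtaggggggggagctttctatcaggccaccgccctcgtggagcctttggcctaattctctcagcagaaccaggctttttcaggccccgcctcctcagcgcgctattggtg
A match of letters is a description of the window. Binding of the receptor was not measured in these mice.

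All 10 genes were detected in every mouse, at depths of 12811413 to 15607343 recovered reads per mouse. Each value is a normalized count, the count of the gene after division by a size factor of that mouse. For the order of levels between genes the normalized counts were divided by the exon length of the gene in kilobases. In the control group *Mt1*, which encodes a small zinc-binding protein, was the highest with 662 ± 62.0 (SD, n = 6) normalized counts per kilobase. *Zbtb16*, a zinc finger repressor, followed with 267 ± 12.6 (SD, n = 6), and *Nr3c1* with 255 ± 10.6 (SD, n = 6), and these neighbours did not differ beyond their spread. *Tsc22d3*, which encodes the anti-inflammatory protein GILZ, had 162.5 ± 21.8 (SD, n = 6). Below it *Sgk1* (138 ± 28.6, SD), *Mt2* (129.5 ± 15.4, SD) and *Cdkn1a* (126 ± 22.1, SD) lay within their spread of each other per kilobase, with n = 6 each. *Nr3c2* had 80.2 ± 4.97 (SD, n = 6) normalized counts per kilobase, *Fkbp5* 37.8 ± 2.36 (SD, n = 6) and *Arrdc2* 22.5 ± 3.37 (SD, n = 6), and here each neighbour was outside the spread of the next. On this scale the glucocorticoid receptor was therefore above the mineralocorticoid receptor in the control mPFC.

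**Figure D1:**
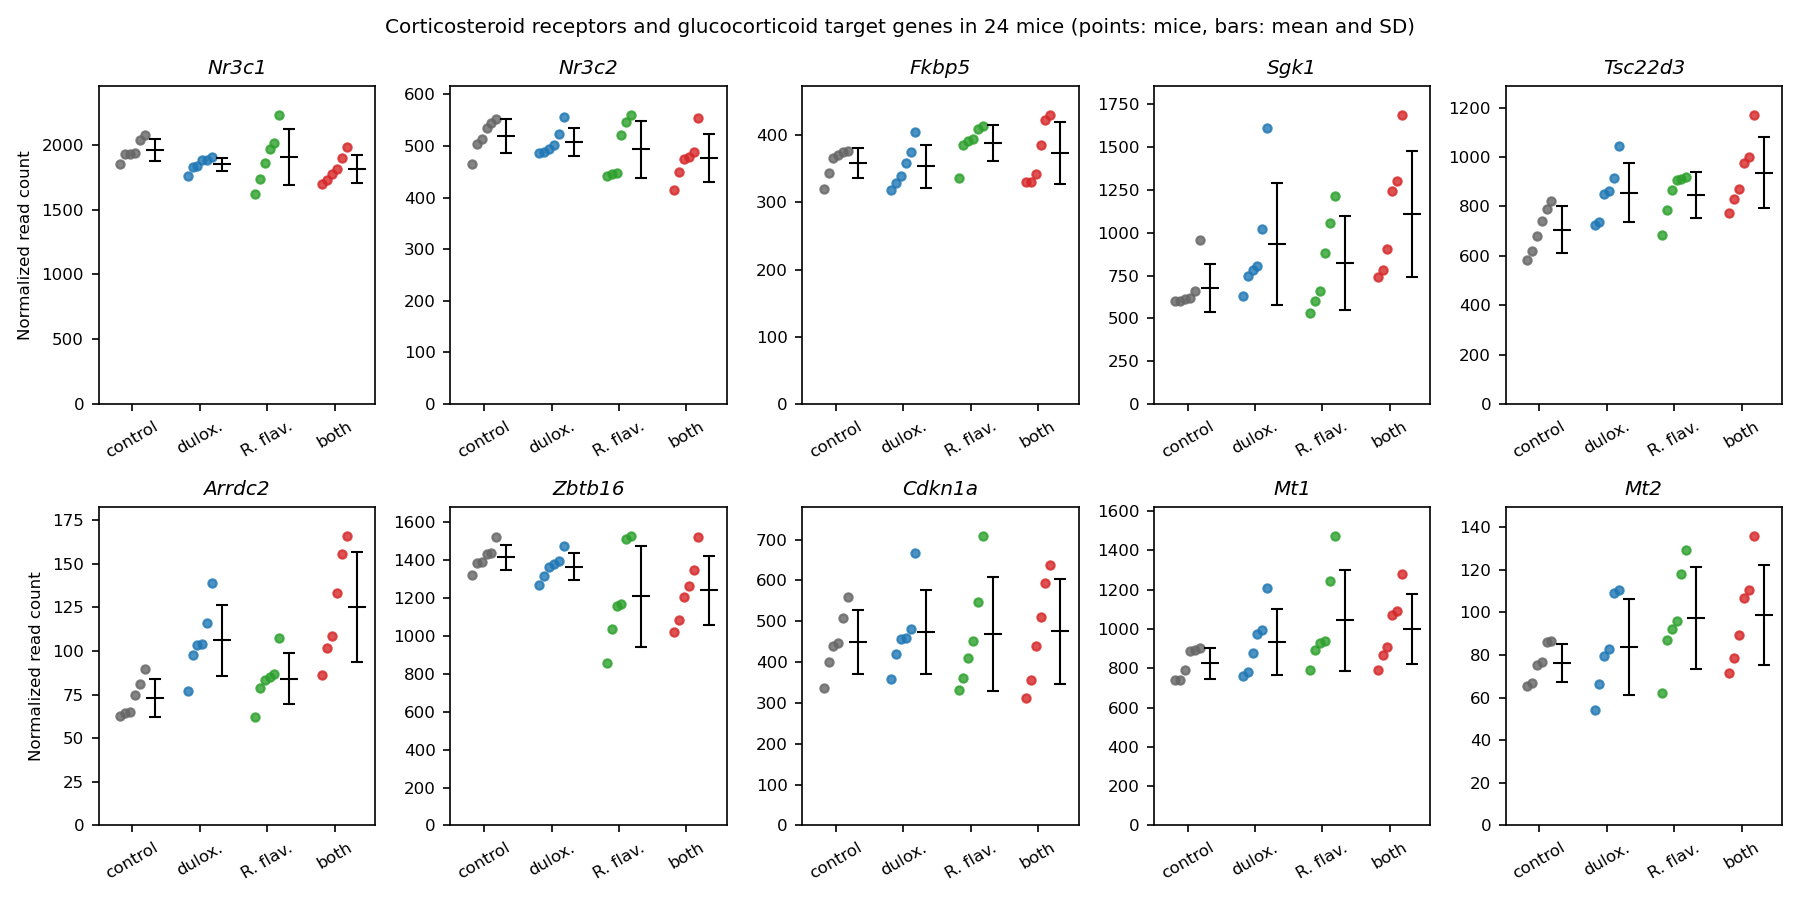
Normalized read counts (y axis, linear, from 0) of the 10 genes in 24 mice, by group (x axis; dulox., duloxetine; R. flav., *R. flavefaciens*). Each point is 1 mouse, and the bars give mean and SD of the 6 mice of a group. *Arrdc2* runs from 62.5 to 89.4 in control and from 86.4 to 166 in the combined group, while the ranges of *Nr3c1* in the 4 groups overlap.

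The question put to each gene was whether duloxetine, *R. flavefaciens* or both changed its level. One gene, *Arrdc2*, passed the threshold (limma on log2(value + 1), adjusted p under 0.05 over 14974 genes), and it was higher with duloxetine. Of the 10 genes, 1 was called in the combined group against control, where 0.1% of all genes tested were called. It was also the 1 gene called for duloxetine averaged over mice with and without the bacterium, where 1.03% of all genes were called. In the other 6 comparisons limma called 0 of the 10. These were duloxetine against control (0% of all genes called), *R. flavefaciens* against control (0.0267%), both against duloxetine (0%), both against *R. flavefaciens* (2.23%), *R. flavefaciens* averaged over duloxetine (0.0267%) and the interaction (0%). At an unadjusted p under 0.05 there were 3 of the 10 in the combined group against control and 3 for duloxetine averaged over the bacterium, compared with 16.8% and 14.9% of all genes. There were 2, 3, 0, 1, 4 and 0 of the 10 in the other 6 comparisons, while the shares of all genes were 3.83%, 19.6%, 5.9%, 19.7%, 18.1% and 7.53%. DESeq2 and edgeR on recovered reads called 0 in each of them, except that both called *Arrdc2* in the combined group against *R. flavefaciens*. There DESeq2 called 4.17% of all genes and edgeR 2.18%. In *R. flavefaciens* against control and averaged over duloxetine DESeq2 called 3.26% and 2.95% of all genes, and edgeR 0.0267% in each. In the combined group against control DESeq2 called 1.45% and edgeR 0.114%, and for duloxetine averaged over the bacterium 2.14% and 0.935%. These shares over all genes moved more than the counts of the 10 genes. In *R. flavefaciens* against control limma called 4 of all genes, but 239, 427 or 616 without mouse 9_1, 8_3 or 9_2, 221 with a random block for the first label number, and 0 without *R. flavefaciens* 9_3, without control 1_1, 2_2 or 2_3, or in a fit of these groups alone. Combined against control, it called 15, with 5 (without control 2_1 or 3_1 or combined 10_2) to 154 (without combined 12_4) in fits lacking 1 mouse and 196 in a fit of these groups alone. For duloxetine averaged over the bacterium it called 154, with 46 (without control 3_1) to 260 (without combined 12_4) in fits lacking 1 mouse. For *R. flavefaciens* averaged over duloxetine it called 4, with 1 (without duloxetine 5_4) to 135 (without *R. flavefaciens* 8_3) in such fits. In the combined group against *R. flavefaciens* limma called 334, with 47 (without combined 11_3) to 577 (without *R. flavefaciens* 8_4) in fits lacking 1 mouse. There it called 533 with the random block and 0 in a fit of these groups alone. The 3 comparisons with control use the same 6 control mice and are given side by side. In bulk tissue fewer cells of a type and less RNA per cell cannot be told apart.

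**Figure D2:**
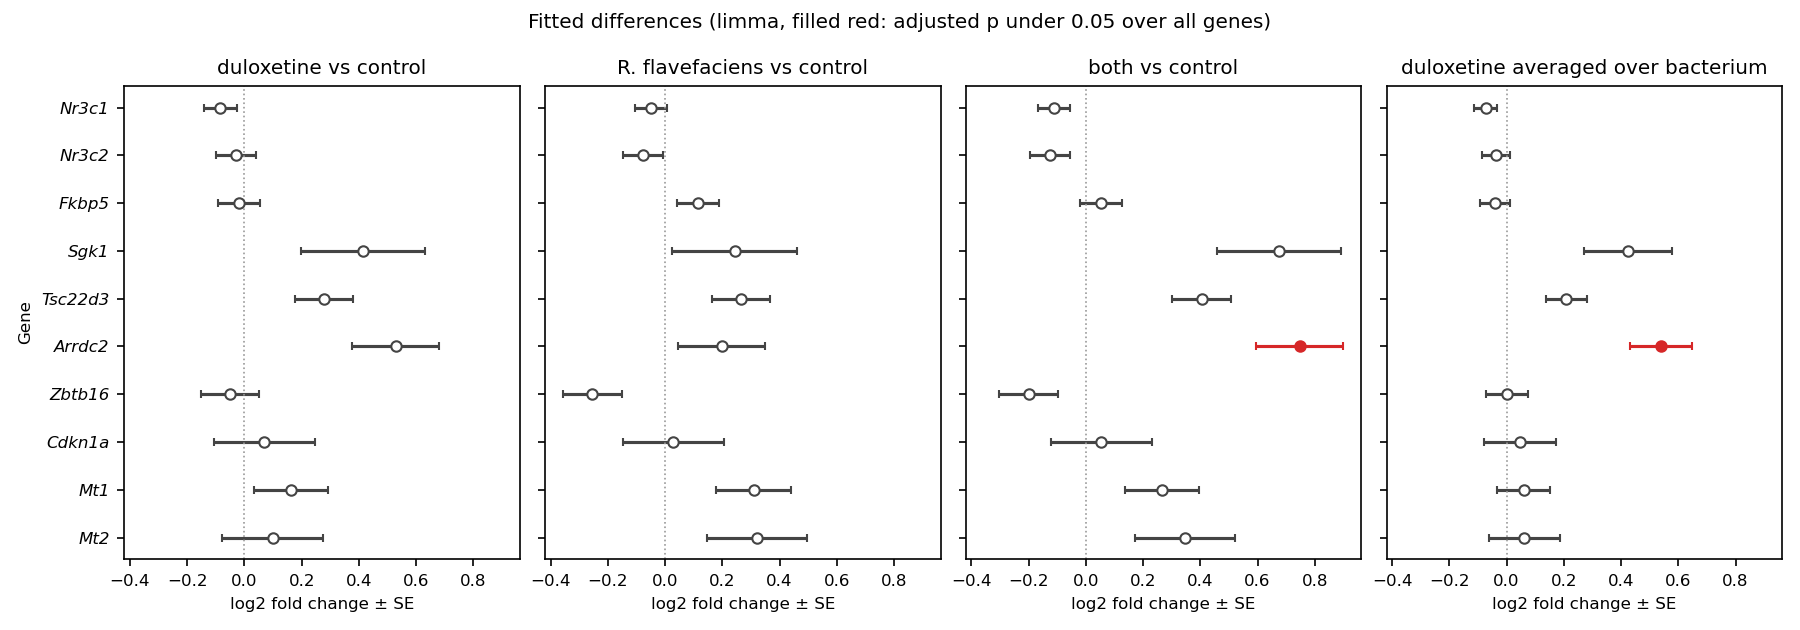
Log2 fold changes (x axis, on the log2(value + 1) scale) with standard errors for the 10 genes (y axis) in 4 comparisons of limma. Filled red points have an adjusted p under 0.05 over all genes, which is *Arrdc2* at 0.75 in the combined group against control and at 0.54 for duloxetine averaged over the bacterium.

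The receptors themselves were close to level. *Nr3c1* (ENSMUSG00000024431.14, chromosome 18, minus strand) had a lowest, median and highest normalized count of 1852, 1936 and 2076 in control, of 1760, 1860 and 1905 in duloxetine, of 1620, 1914 and 2232 in *R. flavefaciens*, and of 1697, 1797 and 1986 in the combined group. All 6 duloxetine mice were below the mean of the controls, but only 3 of 6 were below every control mouse, so that the groups overlapped. The log2 fold changes against control were -0.08, -0.05 and -0.11, each with a standard error of 0.057, and the adjusted p in the combined group was 0.315. *Nr3c2* (ENSMUSG00000031618.13, GRCm38, chr8:76899442-77245012, plus strand) had 465.7, 524 and 553 in control and 415, 477 and 554 in the combined group. Its log2 fold changes were -0.03, -0.08 and -0.13 (standard error 0.069), with an adjusted p of 0.349 in the combined group. For both receptors the combined group had the lowest mean of the 4, and none of these differences passed the test.

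*Fkbp5* (ENSMUSG00000024222.16, chr17:28399095-28517524, minus strand) did not follow *Arrdc2*. Its normalized counts had a lowest, median and highest value of 320, 368 and 376 in control, of 318, 348 and 405 in duloxetine, of 337, 393 and 413 in *R. flavefaciens*, and of 330, 364 and 430 in the combined group. In *R. flavefaciens*, 5 of 6 mice were above every control mouse, and the remaining mouse, 9_3, was within the control range. The log2 fold changes against control were -0.02, 0.11 and 0.05 (standard error 0.074), with adjusted p-values of 0.9996, 0.403 and 0.744 from limma.

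*Arrdc2* (ENSMUSG00000002910.11, chr8:70835129-70839720, minus strand) encodes an alpha-arrestin, an adaptor that brings ubiquitin ligases to membrane proteins. It had a lowest, median and highest normalized count of 62.5, 69.6 and 89.4 in control, of 77.3, 104 and 139 in duloxetine, of 62.1, 84.3 and 108 in *R. flavefaciens*, and of 86.4, 121 and 166 in the combined group. With duloxetine alone 5 of 6 mice, and with both 5 of 6 mice, were above every control mouse, with mouse 5_4 and mouse 12_4 as the exceptions. The means were 1.46 times the control mean with duloxetine, 1.15 times with *R. flavefaciens* and 1.72 times with both. In the combined group the log2 fold change against control was 0.75 (standard error 0.152, limma adjusted p = 0.0438). Averaged over mice with and without the bacterium, the log2 fold change for duloxetine was 0.54 (standard error 0.108, adjusted p = 0.0135), and the mean of the groups given duloxetine was 1.48 times that of the groups not given it. For duloxetine alone the log2 fold change was 0.53 (standard error 0.152), close to the averaged one, with an unadjusted p of 0.00173 and an adjusted p of 0.9996. The interaction was 0.02 (standard error 0.215, adjusted p = 0.984).

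The call for the averaged effect of duloxetine on *Arrdc2* was kept in all 24 fits that lacked 1 mouse, with adjusted p-values from 0.0038 to 0.0341. The call in the combined group against control was lost with any of 13 mice left out. These were control 1_1, 2_1, 2_3 and 3_1, duloxetine 5_3, 6_1 and 6_2, *R. flavefaciens* 7_2 and 8_3, and combined 10_2, 11_3, 11_4 and 12_2, with log2 fold changes from 0.66 to 0.78 and adjusted p-values from 0.0508 to 0.157 (limma). Against *R. flavefaciens* alone the combined group had a log2 fold change of 0.55 (adjusted p = 0.0524), which was under 0.05 in 5 of 9 other ways of processing.

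**Figure D3:**
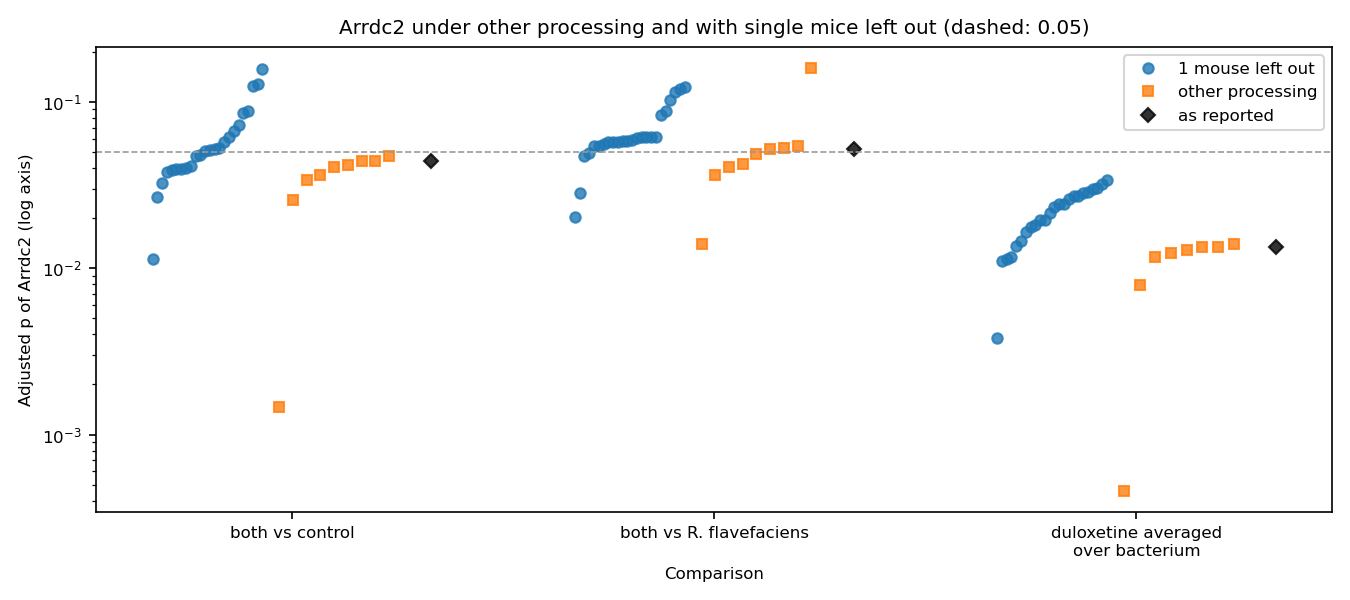
Adjusted p of *Arrdc2* (y axis, log scale) in 3 comparisons (x axis) as reported, under other processing and with each mouse left out. In the averaged effect of duloxetine all points are under the dashed line at 0.05, while the other 2 comparisons have points on both sides of it.

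*Tsc22d3* and *Sgk1* had higher means in each treated group than in control and were not called. *Tsc22d3* (ENSMUSG00000031431.13, chrX:140539528-140600659, minus strand) had a lowest, median and highest normalized count of 583, 712 and 820 in control, of 725, 857 and 1044 in duloxetine, of 683, 888 and 919 in *R. flavefaciens*, and of 771, 923 and 1171 in the combined group. In the combined group 5 of 6 mice were above every control mouse, against 4 of 6 in each group with a single treatment. The log2 fold changes against control were 0.28, 0.26 and 0.40 (standard error 0.102). The adjusted p in the combined group was 0.0866, and DESeq2 (0.0203) and a limma fit of these groups alone (0.0493) put it under the threshold.

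*Sgk1* (ENSMUSG00000019970.15, chr10:21882184-21999903, plus strand) encodes a kinase that regulates ion channels and transporters. Its lowest, median and highest normalized counts were 601, 614 and 957 in control, 628, 792 and 1613 in duloxetine, 528, 770 and 1217 in *R. flavefaciens*, and 743, 1074 and 1688 in the combined group. The mean of the combined group was 1.64 times that of the controls, but only 3 of its 6 mice were above every control mouse, since control mouse 3_3 was at 957. The log2 fold change in the combined group was 0.67 (standard error 0.218, adjusted p = 0.142), and without mouse 3_3 it was 0.78 (adjusted p = 0.167). The coefficient of variation of *Sgk1* was 20.8% in control and between 33.1% and 38.3% in the treated groups, compared with 4.14% in control and between 2.87% and 11.4% in the treated groups for *Nr3c1*.

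*Zbtb16* (ENSMUSG00000066687.5, chr9:48654297-48836222, minus strand) had a lower mean in each group with the bacterium than in control and was not called. Its lowest, median and highest normalized counts were 1322, 1408 and 1519 in control, 1266, 1369 and 1474 in duloxetine, 854, 1163 and 1523 in *R. flavefaciens*, and 1022, 1232 and 1519 in the combined group. In each group with the bacterium 4 of 6 mice were below every control mouse, while 1 mouse of each was above every control mouse. The log2 fold change of *R. flavefaciens* averaged over duloxetine was -0.20 (standard error 0.073, unadjusted p = 0.00986, adjusted p = 0.152). In fits lacking 1 mouse it was between -0.238 and -0.155 (limma adjusted p from 0.0658 to 0.257). *Cdkn1a* (ENSMUSG00000023067.13, chr17:29090979-29100722, plus strand), which encodes the cell cycle inhibitor p21, ranged from 338 to 560 in control and from 313 to 708 in the treated groups. Its log2 fold changes against control were 0.07, 0.03 and 0.05 (standard error 0.176).

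*Mt1* (ENSMUSG00000031765.8, chr8:94179082-94180327, plus strand) and *Mt2* (ENSMUSG00000031762.7, chr8:94172664-94173568, plus strand) are neighbouring genes for metallothioneins, which bind zinc and copper. Their coding sequences are alike, and how the authors' counting shared reads between them is not stated. *Mt1* had 739, 837 and 902 normalized counts (lowest, median and highest) in control, 758, 926 and 1210 in duloxetine, 789, 932 and 1470 in *R. flavefaciens*, and 792, 988 and 1278 in the combined group. In each group with the bacterium 4 of 6 mice were above every control mouse, and with duloxetine alone 3 of 6. The log2 fold change of *R. flavefaciens* against control was 0.31 (standard error 0.130, adjusted p = 0.186) for *Mt1* and 0.32 (standard error 0.175, adjusted p = 0.314) for *Mt2*. Without mouse 9_3 that of *Mt1* was 0.20 (adjusted p = 0.521). The mouse with the highest *Mt1* count of all, 9_3, was the mouse with the lowest *Zbtb16* and *Nr3c1* counts.

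The genes also varied between mice of the same group, and some varied together. Group means were subtracted from log2(value + 1), and the 45 pairs of the 10 genes were correlated over the 24 mice, with p-values from a two-sided permutation test of 100000 shuffles within groups, adjusted over the 45 pairs by Benjamini-Hochberg. By Pearson's r 8 pairs passed an adjusted p of 0.05, and 7 by Spearman's rho. *Mt1* and *Mt2* had the highest correlation (r = 0.87, permutation p = 1e-05, which is the smallest that these shuffles can give, adjusted p = 0.00045, rho = 0.85). *Sgk1* went with *Tsc22d3* (r = 0.75, permutation p = 9e-05, adjusted p = 0.00202, rho = 0.77) and with *Arrdc2* (r = 0.72, permutation p = 0.00051, adjusted p = 0.00765, rho = 0.67). *Tsc22d3* and *Arrdc2* had r = 0.58 (permutation p = 0.0078, adjusted p = 0.0439, rho = 0.58). Without the 2 mice farthest from the median of the first gene, these r were 0.85, 0.64, 0.61 and 0.53.

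The other 4 pairs were *Tsc22d3* with *Mt2* (r = 0.64) and *Mt1* (r = 0.57), *Arrdc2* with *Mt1* (r = 0.63), and *Zbtb16* with *Cdkn1a* (r = 0.66). Their adjusted permutation p-values were 0.0213, 0.0399, 0.0239 and 0.0268, and *Tsc22d3* with *Mt1* missed the threshold by rho (rho = 0.54, adjusted p = 0.0672). Without the 2 farthest mice these r were 0.50, 0.43, 0.53 and 0.57. Within groups of 6 mice, r of *Sgk1* and *Tsc22d3* was between 0.48 and 0.96, r of *Mt1* and *Mt2* between 0.68 and 0.93, and r of *Sgk1* and *Arrdc2* between 0.37 in *R. flavefaciens* and 0.93 in the combined group. The other 5 pairs had an r near or below 0.1 in 1 group each. In control these were *Tsc22d3* with *Mt2* (r = -0.27) and *Mt1* (r = 0.11), *Arrdc2* with *Mt1* (r = -0.40) and *Zbtb16* with *Cdkn1a* (r = 0.05), and in *R. flavefaciens* it was *Tsc22d3* with *Arrdc2* (r = -0.09). *Nr3c1*, *Nr3c2* and *Fkbp5* were in none of the 8 pairs. The r of *Fkbp5* with *Sgk1*, *Tsc22d3* and *Arrdc2* was between -0.105 and -0.004 over all mice. Within groups it was -0.94, -0.61 and -0.85 in control, 0.47, 0.54 and 0.25 in duloxetine, 0.20, -0.18 and 0.11 in *R. flavefaciens*, and -0.21, -0.12 and -0.17 in the combined group. Whether the groups differ in this was not tested. The number of pairs was between 4 and 8 with single mice left out, and was lowest without combined mouse 12_2 or 12_4.

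**Figure D4:**
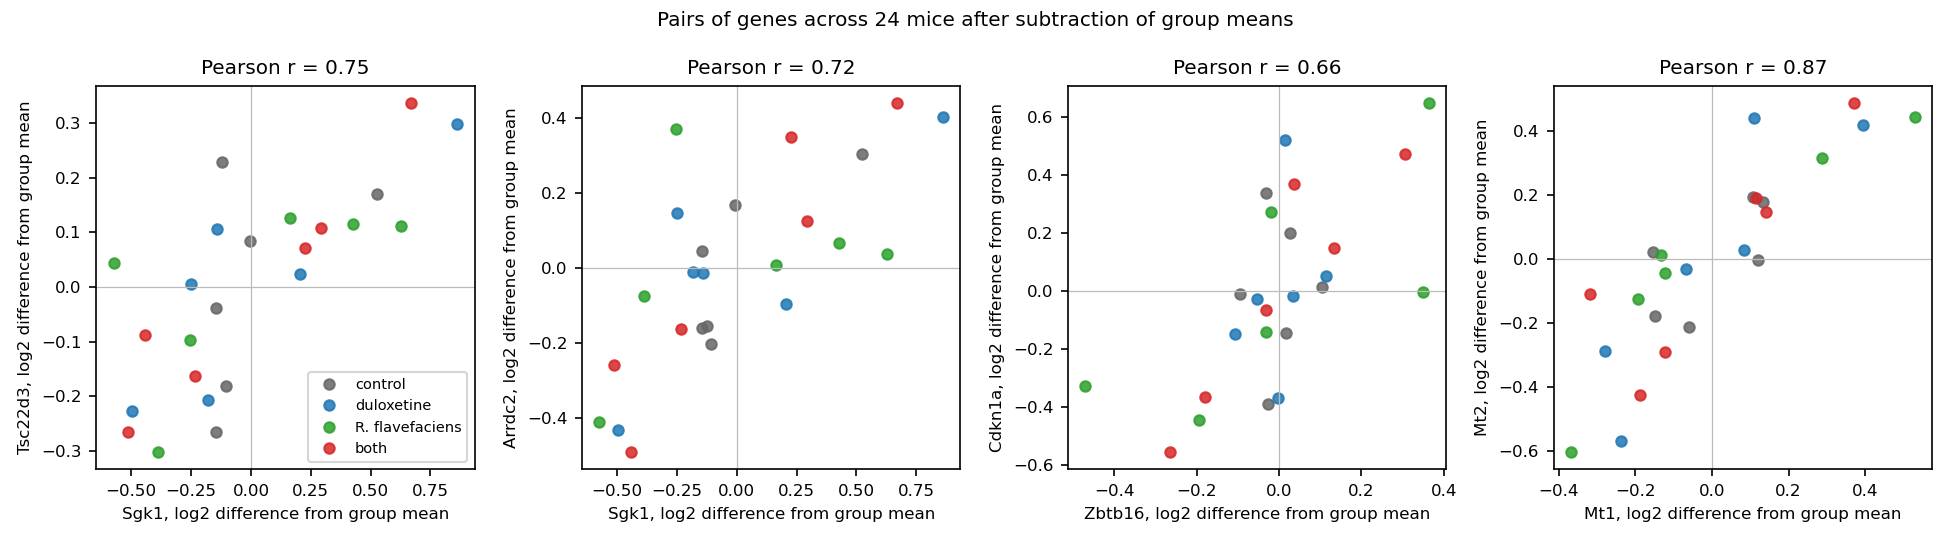
Differences from the group mean on the log2 scale for 4 pairs of genes (x and y axes). Each point is 1 of 24 mice, colored by group. *Sgk1* against *Tsc22d3* has r = 0.75 and *Mt1* against *Mt2* r = 0.87.

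The genes most alike to each member across the 24 mice were named by the 3 highest r among all genes tested, as a description. *Sgk1* had *Ddit4* (r = 0.85), *Lnx2* (0.84) and *Pdk4* (0.83). *Ddit4*, an inhibitor of mTOR signalling, and *Pdk4*, a kinase that restrains pyruvate oxidation, are themselves raised by glucocorticoids in many tissues. *Tsc22d3* had *Slc2a1* (0.84), the glucose transporter of the blood-brain barrier, with *Pim3* (0.83) and *Il33* (0.78). *Arrdc2* had *Iqgap1* (0.88), *Pbxip1* (0.85) and *Gltp* (0.84). *Mt1* had *Cst3* (0.95), *Sdc4* (0.94) and *Ndrg2* (0.93), and *Mt2* had *Sdc4* (0.88), *Selenop* (0.88) and *Slc2a1* (0.87). *Zbtb16* had *Gramd1b* (0.94), *Rock2* (0.92) and *Pcsk1* (0.92), and *Cdkn1a* had *Mdga1* (0.89), *Ppm1h* (0.88) and *Cbln4* (0.88). The values were lowest for *Nr3c2* and *Fkbp5*. *Nr3c1* had *Rmnd5a* (0.86), *Mindy2* (0.86) and *Kmt2e* (0.84), *Nr3c2* had *Igsf10* (0.76), *2010315B03Rik* (0.76) and *Sec24d* (0.75), and *Fkbp5* had *Elk4* (0.73), *Pcdhga5* (0.67) and *Mapkap1* (0.67).

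Markers of cell types moved with several of these genes between mice. The summed normalized counts of each marker list and the recovered reads were correlated with the 10 genes in the same way, 120 relations in all, of which 27 had an adjusted permutation p under 0.05. *Arrdc2* followed the markers of pericytes and smooth muscle (r = 0.73, permutation p = 0.00024, adjusted p = 0.00411, rho = 0.80), astrocytes (r = 0.72, permutation p = 0.00096, adjusted p = 0.0105, rho = 0.66) and oligodendrocytes (r = 0.72, permutation p = 0.00045, adjusted p = 0.006, rho = 0.74). *Sgk1* followed oligodendrocytes (r = 0.71, permutation p = 0.00107, adjusted p = 0.0107, rho = 0.69). *Mt1* followed microglia (r = 0.82) and astrocytes (r = 0.81), each with permutation p = 1e-05 and adjusted p = 0.0004 (rho = 0.80 and 0.84). *Nr3c2* ran against excitatory neurons (r = -0.68, permutation p = 0.00204, adjusted p = 0.0163, rho = -0.59). Without the 2 mice farthest from the median of the marker sum, these r were 0.72, 0.59, 0.70, 0.67, 0.79, 0.77 and -0.56. *Arrdc2* also followed the markers of endothelial cells (r = 0.68), blood (r = 0.62) and striatum (r = 0.53). Their adjusted permutation p-values were 0.0139, 0.0392 and 0.044, and striatum missed the threshold by rho (0.0555). Without the 2 farthest mice these r were 0.56, 0.57 and 0.39. No relation with the recovered reads passed by r. By rho that of *Fkbp5* did (rho = 0.55, adjusted permutation p = 0.0419), while its r was 0.43 (adjusted permutation p = 0.105).

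**Figure D5:**
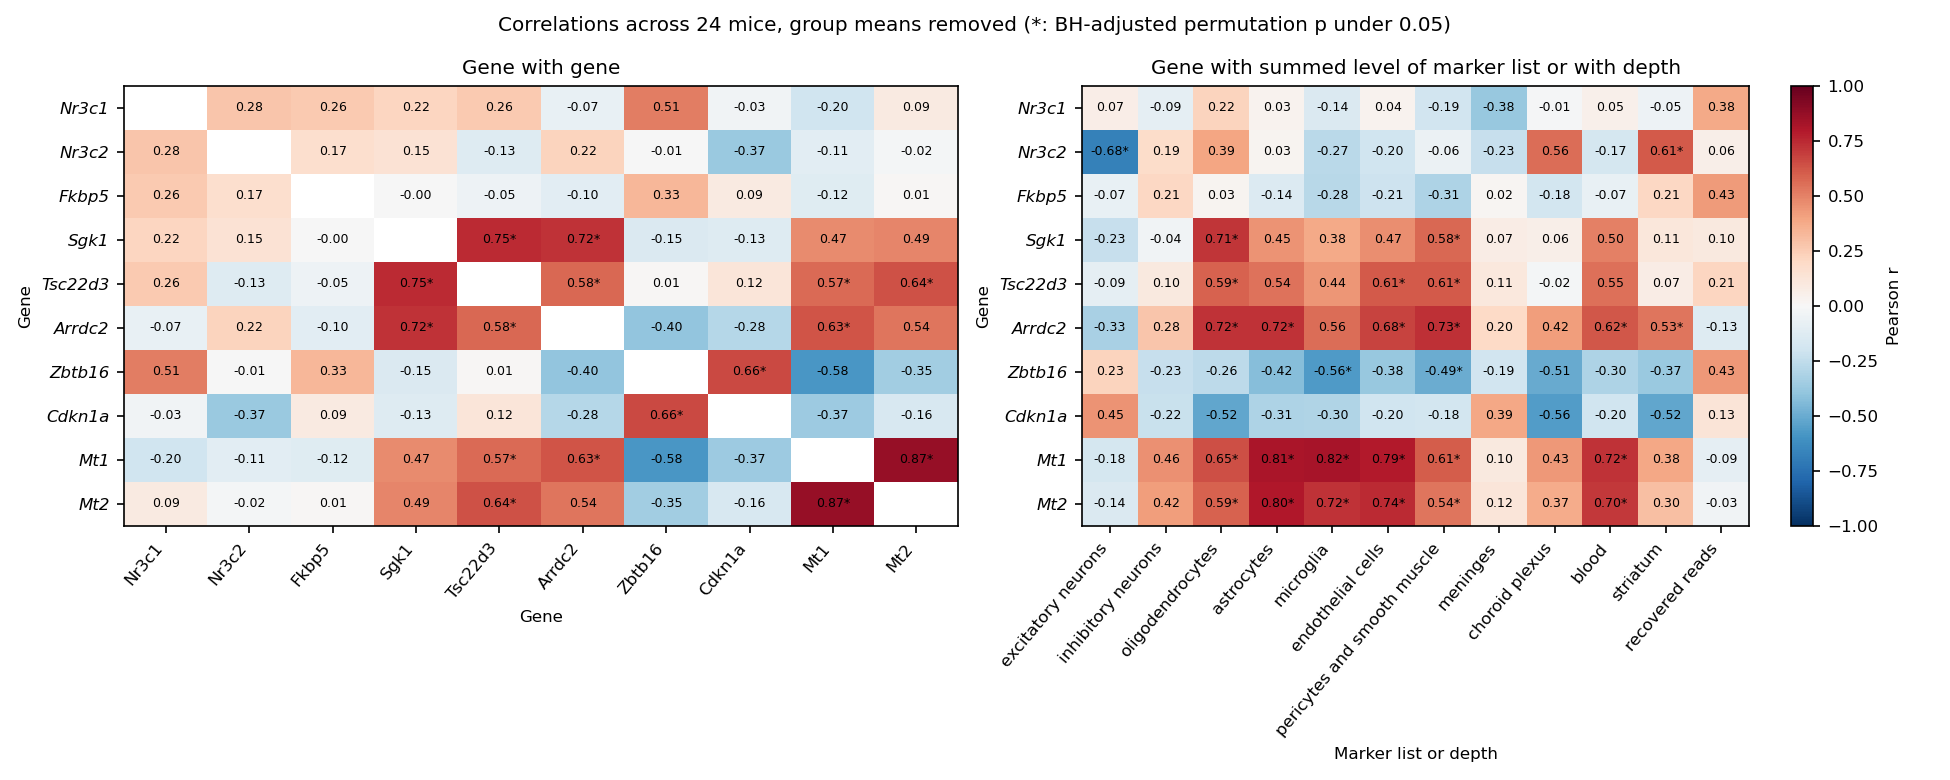
Pearson r across 24 mice after subtraction of group means, for pairs of the 10 genes (left) and for each gene with summed marker lists and with recovered reads (right). Stars mark an adjusted permutation p under 0.05. The stars gather on *Sgk1*, *Tsc22d3*, *Arrdc2*, *Mt1* and *Mt2*, with *Arrdc2* at 0.73 for pericytes and smooth muscle.

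The markers were also summed by group. The 8 oligodendrocyte markers summed to 25680 ± 8242 (SD, n = 6) normalized counts in control, 29390 ± 14380 in duloxetine, 31210 ± 15250 in *R. flavefaciens* and 30300 ± 16890 in the combined group, with *Mbp* as the most abundant. Single mice ranged from 11880 to 53080. The 6 astrocyte markers (most abundant *Slc1a3*) summed to 12850 ± 679 in control, 13400 ± 1439 in duloxetine, 13990 ± 1103 in *R. flavefaciens* and 14560 ± 2334 with both (SD, n = 6). The 5 markers of pericytes and smooth muscle (most abundant *Rgs5*) summed to 2316 ± 397 in control, 2544 ± 327 in duloxetine, 2368 ± 289 in *R. flavefaciens* and 2545 ± 455 in the combined group. The 6 microglial markers (most abundant *Csf1r*) summed to 4035 ± 232, 4476 ± 418, 4536 ± 340 and 4695 ± 613 in the same order. The 6 endothelial markers (most abundant *Flt1*) summed to 2964 ± 200.2, 3148 ± 426, 3219 ± 171 and 3307 ± 572. The 5 blood markers (most abundant *Hbb-bs*) summed to 349 ± 65.7, 462 ± 265, 598 ± 204 and 633 ± 351. Limma and edgeR called 0 genes of these lists in any of the 8 comparisons. DESeq2 called *C1qa*, *S100b* and *Rgs5*, the first in 3 comparisons with *R. flavefaciens* given, the second in *R. flavefaciens* against control and averaged over duloxetine, and the third in the combined group against control. In the combined group against control the genes with an unadjusted p under 0.05 were 0 of 8 oligodendrocyte, 3 of 6 astrocyte, 2 of 5 pericyte and smooth muscle, 5 of 6 microglial, 2 of 6 endothelial and 5 of 5 blood markers, all higher, where 16.8% of all genes were under it. In *R. flavefaciens* against control they were 4 of 6 microglial, 4 of 5 blood and 1 of 6 astrocyte markers, all higher, and 0 of the other 3 lists, where 19.6% of all genes were under it. In duloxetine against control they were 4 of 6 microglial markers, all higher, and 0 of the other 5 lists, where 3.83% of all genes were under it. For duloxetine averaged over the bacterium they were 2 of 6 microglial, 2 of 5 pericyte and smooth muscle and 1 of 6 astrocyte markers, all higher, and 1 higher and 1 lower of 6 endothelial markers, with 0 oligodendrocyte and 0 blood markers, where 14.9% of all genes were under it. No marker of these lists was at 0 in all mice. Of the 5 pericyte and smooth muscle markers, 2 were lower in the combined group than in control. These were *Acta2* (means 181.8 and 251.8) and *Myh11* (177.4 and 246.1). The other 3 were higher, *Rgs5* with means of 1732 and 1398. The part of cell types in the difference of *Arrdc2* was not tested.

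The tissue itself carried the markers of cortex. The 6 markers of excitatory neurons (most abundant *Camk2a*) summed to 101600 ± 3644 (SD, n = 6) in control, and the 6 of inhibitory neurons (most abundant *Gad1*) to 10050 ± 464. In duloxetine, *R. flavefaciens* and the combined group the first summed to 102600 ± 4389, 103100 ± 6454 and 105100 ± 5866, and the second to 10000 ± 356, 10930 ± 388 and 10460 ± 651. In *R. flavefaciens* against control 3 of 6 inhibitory markers had an unadjusted p under 0.05, all higher, compared with 8.86% of all genes higher. Limma called 0 of the 6, while DESeq2 called *Pvalb* and *Sst*. The 6 striatal markers (most abundant *Ppp1r1b*) summed to 1550 ± 209 in control, where the highest mouse had 1937. Above it were *R. flavefaciens* mice 8_4 with 4720 and 8_3 with 2023, and combined mouse 11_4 with 2748. Mouse 8_4 also had 731 for the 2 measured markers of choroid plexus, *Ttr* (657) and *Kl* (73.8), compared with 45.5 ± 8.22 in control, where *Ttr* was at 3.08 or less and *Kl* was the more abundant. *Ttr*, the transthyretin gene, was above every control in 5 of 6 duloxetine, 5 of 6 *R. flavefaciens* and 4 of 6 combined mice, at 68.6 or less in all of them but mouse 8_4, and limma did not call it. The 5 meningeal markers (most abundant *Col1a1*) summed to 468 ± 216 in control, 484.5 ± 159 in duloxetine, 519 ± 121 in *R. flavefaciens* and 402 ± 48.2 in the combined group. Between the last 2 groups 2 of 5 were lower with both at an unadjusted p under 0.05, compared with 9.9% of all genes. Limma called 0 of the 5 there and 2.23% of all genes. Mouse 8_4 had the highest *Arrdc2* count of its group (108), and combined mouse 11_4 the second highest of its group (155). Without mouse 11_4 the log2 fold change of *Arrdc2* in the combined group was 0.68 (limma adjusted p = 0.0877). The averaged effect of duloxetine on *Arrdc2* was called without mouse 8_4 and without mouse 11_4.

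Other genes of the pathway were described from lists. The chaperones that hold the receptor contained the genes that limma called besides *Arrdc2*. *Dnajb1*, a co-chaperone of heat shock protein 70, had a lowest, median and highest normalized count of 893, 1000 and 1176 in control, of 794, 898 and 971 in duloxetine, of 898, 1210 and 1558 in *R. flavefaciens*, and of 725, 849 and 1108 in the combined group. It was lower in the combined group than in *R. flavefaciens* (log2 fold change -0.47, standard error 0.099, limma adjusted p = 0.0171) and lower with duloxetine averaged over the bacterium (-0.33, standard error 0.070, adjusted p = 0.0243). The first call was lost in a fit of these groups alone (adjusted p = 0.117) and without combined mouse 11_3 (0.0569), and the second without control mouse 3_1 (0.0559) or combined mouse 11_3 (0.0543), while it was at 0.04996 without duloxetine mouse 5_3. *Fkbp4* encodes FKBP52, which competes with FKBP51 for the receptor complex and favours its entry to the nucleus. It had means of 1666 ± 61.6 in control, 1580 ± 97.2 in duloxetine, 1771 ± 108 in *R. flavefaciens* and 1517 ± 131 with both (SD, n = 6). Between combined and *R. flavefaciens* mice the log2 fold change was -0.23 (standard error 0.054, adjusted p = 0.0292), and it was -0.15 (standard error 0.038, adjusted p = 0.0489) for duloxetine averaged over the bacterium. The second of these was near the threshold and was kept in only 6 of 24 fits without 1 mouse, those lacking 1_1, 6_2, 7_2, 8_3, 11_4 or 12_4 (adjusted p from 0.0262 to 0.104 over the 24). The first was lost in a fit of these groups alone (adjusted p = 0.154) and in 5 of 24 fits, those without *R. flavefaciens* 9_1 or 9_3 or combined 11_3, 12_2 or 12_3 (0.0174 to 0.0871 over the 24).

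All 12 chaperones were tested, and 2 of 12 were called lower in the combined group against *R. flavefaciens*, where 1.16% of all genes were called lower. All 12 had a negative log2 fold change there, with a median of -0.11 against 0.00 for all genes. Against control, 9 of 12 were higher in *R. flavefaciens* (median 0.07, 4 of 12 with an unadjusted p under 0.05, against 19.6% of all genes), while 7 of 12 were lower with duloxetine alone (median -0.02, 0 with an unadjusted p under 0.05, against 3.83%) and 9 of 12 were lower with both (median -0.07, 2 with an unadjusted p under 0.05, against 16.8%). Limma called 0 of the 12 against control in any group. The interaction was negative for 12 of 12 (median -0.11, against -0.002 for all genes), with 3 under an unadjusted p of 0.05 (7.53% of all genes) and 0 called. It contains the difference between the combined and *R. flavefaciens* mice, so its 12 of 12 is not separate from the 12 there. For duloxetine averaged over the bacterium 2 of 12 were called lower (0.534% of all genes), with a median of -0.06. *Bag1*, a nucleotide exchange factor of heat shock protein 70, had the smallest unadjusted p of the list against control in *R. flavefaciens* (log2 fold change 0.15, adjusted p = 0.129). Whether the effect of duloxetine on *Fkbp4* differed from that on *Fkbp5* was not tested.

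Of the 11 receptor coregulators, the proteins through which nuclear receptors turn transcription up or down, limma and edgeR called 0 in any comparison, while DESeq2 called *Nrip1* in *R. flavefaciens* against control and *Smarca4* in the combined group against control and for *R. flavefaciens* averaged over duloxetine. All 11 had a negative log2 fold change in *R. flavefaciens* against control, with a median of -0.17 against 0.00 for all genes, and 8 of 11 had an unadjusted p under 0.05 and a lower value, compared with 10.8% of all genes. Without mouse 9_3 the median was -0.11, with all 11 still negative, and 4 of 11 had an unadjusted p under 0.05, compared with 6.13% of all genes lower. Counts of that mouse lay far from the other 5 of its group (chi-square over degrees of freedom between 11.5 and 25.9). The spread was also wider in *R. flavefaciens*, where *Ncor1*, a corepressor, had 4484 ± 630 (SD, n = 6), compared with 4989 ± 72.3 in control. *Ncor1* was chosen after its values were seen. The corepressor *Nrip1* had a log2 fold change of -0.30 (standard error 0.081, adjusted p = 0.0727) in *R. flavefaciens*, and the chromatin remodeller *Smarca4* -0.13 (standard error 0.036, adjusted p = 0.117) in the combined group.

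Of the 26 other genes that glucocorticoids are known to raise, 25 were tested and limma called 0 in any comparison. EdgeR called *Ddit4* for duloxetine averaged over the bacterium, where DESeq2 called *Ddit4*, *Nfkbia*, *Per1* and *Dusp1*. DESeq2 also called *Ddit4* and *Nfkbia* in the combined group against control and *Angptl4* in the combined group against *R. flavefaciens*. In the combined group against control 5 of 25 had an unadjusted p under 0.05 and a higher value (8.08% of all genes), and 1 of 25 a lower one (8.73%). The median log2 fold change was 0.12, against 0.00 for all genes. *Ddit4* had 307, 335 and 467 normalized counts (lowest, median and highest) in control and 432, 535 and 686 in the combined group, a log2 fold change of 0.60 (standard error 0.144, adjusted p = 0.072), and 0.40 (adjusted p = 0.0507) for duloxetine averaged over the bacterium. *Nfkbia*, which encodes the inhibitor of NF-kappaB, had a log2 fold change of 0.57 (standard error 0.162, adjusted p = 0.114) in the combined group. *Per1* and *Dusp1*, which also respond to hormone within minutes to hours and to neuronal activity, went the other way and were chosen here after their values were seen. *Per1*, a gene of the circadian clock, had 1666 ± 256 in control, 1383 ± 137 in duloxetine, 1733 ± 210.4 in *R. flavefaciens* and 1405 ± 220.0 with both (SD, n = 6). Its log2 fold change for duloxetine averaged over the bacterium was -0.28 (standard error 0.073, adjusted p = 0.0543), while that of *Dusp1*, a phosphatase of MAP kinases, was -0.36 (standard error 0.108, adjusted p = 0.103). For duloxetine averaged over the bacterium, 16 of these 25 genes had a positive and 9 a negative log2 fold change (median 0.02, against 0.00 for all genes). For *R. flavefaciens* they were 21 positive and 4 negative against control (median 0.13) and 20 positive and 5 negative averaged over duloxetine (median 0.09). Of the 10 genes followed here 7 were positive and 3 negative in *R. flavefaciens* against control (median 0.16), averaged over duloxetine (median 0.145) and with both (median 0.16). For duloxetine averaged over the bacterium 7 were positive and 3, *Nr3c1*, *Nr3c2* and *Fkbp5*, negative (median 0.05). Beside *Arrdc2* at 0.54 stood *Sgk1* at 0.42 (standard error 0.154, adjusted p = 0.186) and *Tsc22d3* at 0.21 (standard error 0.072, adjusted p = 0.162), while *Fkbp5* had -0.04 (standard error 0.052) and *Zbtb16* 0.00 (standard error 0.073).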

How the data were processed

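Poly(A) RNA of mPFC punches was sequenced in 24 mice, 6 per group by the labels. According to the methods, the authors mapped reads to GRCm38.p5, and the processing notes name TopHat2 2.1.0, Bowtie2 2.2.6 and DESeq2 1.18.1 and also mm9, but gene positions in the table are those of GRCm38. The read counter, the use of strand and the gene filter are not given in the sources used here. The deposited signal values hold the counts of each gene over a size factor specific to the mouse. Of 370875 non-zero values 99.997% were whole multiples of a step per mouse (0.883 to 1.108) within 0.0051, so reads were recovered (median 14455107 per mouse). Pairs of mice within groups differed by more than counting error (chi-square per degree of freedom 2.07 to 25.9). P-values measure the spread between mice.

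Values were tested with limma 3.58.1 (trended prior, two-sided, R 4.3.3) on log2(value + 1) over the 14974 genes whose mean was 10 or more, with the 4 groups in 1 fit, with Benjamini-Hochberg adjustment within each of 8 comparisons and a threshold of 0.05. A log2 fold change on this scale understates the change of low genes. Of the gene IDs, 15438 were found in GENCODE vM21, and exon lengths are unions of its exons. Correlations were computed with scipy 1.17.1, pandas 2.3.3 and numpy 2.4.6 in Python 3.11.15, and matplotlib 3.10.9 drew the figures. Alternatives were DESeq2 1.42.0 and edgeR 4.0.16 on recovered reads, a fit of only the groups compared, the first label number as a random block, scaling by quantiles or by the upper quartile, other filters (none, or a mean of 50), a pseudocount of 0.1, and leaving out each mouse. Genes named are all 10 members, of each pathway list the genes called and the 2 with the smallest p against control, the 3 most correlated genes per member, and the most abundant marker of each list. *Per1*, *Dusp1*, *Ncor1*, *Ttr*, *Acta2*, *Myh11* and genes called by DESeq2 or edgeR alone lie outside this rule and were chosen after their values were seen. Members, lists and tests were chosen with earlier results of these data known. The scripts were tested on simulated data.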

Additional observations from a re-analysis of the deposited data

Results flagged for a closer look

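One value stood apart within its group. Control mouse 3_3 had 957 normalized counts of *Sgk1*, while the other 5 controls were between 601 and 662, and its gap to the nearest mouse was 0.828 of the range of the group, above the critical value of 0.625 for 6 mice. The 10 genes in 4 groups gave 40 such checks, and chance marks about 1 in 20 groups, so 1 mark is no more than chance gives. The same mouse had the highest *Arrdc2* count of the controls (89.4). Its summed oligodendrocyte markers (29590) were above the control mean (25680) and below those of control mouse 2_3 (39010).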

How the results depend on the processing

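The log2 fold changes followed through the alternatives were those of *Arrdc2*, *Sgk1*, *Tsc22d3*, *Zbtb16*, *Mt1*, *Mt2*, *Dnajb1* and *Fkbp4*. Each was followed only where the gene was called or, for the 10 genes, had an unadjusted limma p under 0.05. None of these changed sign, which the choice by p made likely beforehand. Other comparisons of these genes, and all of *Nr3c1*, *Nr3c2*, *Fkbp5* and *Cdkn1a*, were not followed. The number of the 10 genes called in the combined group against control was 2 in place of 1 (*Arrdc2* and *Tsc22d3*) with only the groups compared and with DESeq2, and between 0 and 1 with single mice left out. Against *R. flavefaciens* it was 1 in place of 0 (*Arrdc2*) with a minimum mean of 50, quantile normalization, the random block for the first label number, DESeq2 and edgeR, and between 0 and 1 with single mice left out. For duloxetine averaged over the bacterium it was 1 in every alternative and every fit without 1 mouse, and in the other 5 comparisons it was 0 in all of them. The pairs of correlated genes were 8 with a pseudocount of 0.1, quantile normalization and scaling by the upper quartile, and between 4 and 8 with single mice left out. *Fkbp4* lost its call for duloxetine averaged over the bacterium with quantile normalization (adjusted p = 0.106), scaling by the upper quartile (0.0873) and edgeR (0.0544). The causes were not tested. No paired analysis was possible because mice of different groups share no label. The random block, which joins mice by the first label number and had a fitted correlation of -0.0451, added the call of *Arrdc2* above. With a negative correlation this block narrows the standard errors of the group means, so it is no stricter check than the main fit. Depth limits *Arrdc2* and *Mt2* most, with control means of 72.8 and 76.1 normalized counts, and counting error is then part of the spread between mice. No group has a recorded sequencing batch, and the treatment groups do not share a first label number. Spread between numbers within a group entered the random block. A difference between whole groups that goes with the numbers cannot be told apart from the treatment.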

Other observations

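Some relatives and neighbours in function of the 10 genes were also measured. Of the 12 paralogs 11 were tested, and besides *Fkbp4* limma called none of them in any comparison, while DESeq2 also called *Mt3* with *R. flavefaciens*. *Tsc22d2*, a relative of *Tsc22d3*, had log2 fold changes of -0.16, -0.19 and -0.21 (standard error 0.074) with duloxetine, *R. flavefaciens* and both against control, opposite in sign to *Tsc22d3*, with an adjusted p of 0.17 in the combined group. *Mt3*, the metallothionein of neurons and astrocytes, had 0.30 (standard error 0.093, adjusted p = 0.093) in *R. flavefaciens*. Of the 7 zinc genes, *Mt3* among them, limma called 0, and the zinc importer *Slc39a10* had -0.19 (adjusted p = 0.258) in the combined group.

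Of the 11 tested genes of the p53 pathway, which also raises *Cdkn1a*, limma called 0 in any comparison, while DESeq2 called *Sesn1* for *R. flavefaciens* averaged over duloxetine. *Sesn1* had a log2 fold change of 0.16 (standard error 0.052, adjusted p = 0.103) in *R. flavefaciens*, and *Trp53inp1* 0.34 (standard error 0.114, adjusted p = 0.159) in the combined group. Of the 5 measured genes that supply or export active steroid, limma called 0, and *Hsd11b1*, whose enzyme regenerates corticosterone within cells, had 0.25 (standard error 0.126, adjusted p = 0.274) in *R. flavefaciens*. *Abcb1b*, an efflux transporter, had 0.44 (standard error 0.224, adjusted p = 0.321) in the combined group. Of the 4 tested genes of the corticotropin-releasing hormone system limma called 0. *Crhbp*, which binds and buffers the hormone, had 0.23 (standard error 0.086, adjusted p = 0.195) in the combined group, and *Crh* itself 0.24 (standard error 0.152, adjusted p = 0.427).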
